A study of Mus musculus with 4 samples.

Results

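Ncmap, Slc16a4 and Tspan9 are 3 genes of membrane proteins whose signals lay lower on the furin knockout arrays than on the wild-type arrays of naive helper T cells. The mouse 430 2.0 array annotation maps 5 probe sets to one of these symbols alone, 1 for Ncmap, 2 for Slc16a4 and 2 for Tspan9, of 45037 probe sets that are not controls and 18193 genes with a probe set of their own. A further 0 probe sets share a member symbol with another gene. The genes were chosen on the knockout against wild-type difference itself, so their differences are a description and carry no p-value. The cells were T cells positive for CD4 and CD62L and negative for CD44, sorted fresh from mice of 10 to 11 weeks. The knockout mice were CD4-cre fur flox/flox, in which the CD4 promoter drives Cre in T cells, and the wild-type mice were littermates that were fur flox/flox without Cre, so all mice carried the floxed allele. Each group had 2 arrays, 4 in all, which limits the precision of every value, and whether different animals gave the arrays of a group is not stated in the labels.

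Ncmap encodes noncompact myelin associated protein, a small membrane protein known from the uncompacted regions of peripheral myelin, which Schwann cells make. Slc16a4 encodes a member of the monocarboxylate transporter family, whose best known members move lactate, pyruvate and ketone bodies across the plasma membrane together with protons, and the cargo of Slc16a4 itself is less well known. Tspan9 is a tetraspanin, one of a family of proteins that cross the membrane several times and gather integrins, receptors and proteases into membrane domains, and it is known from platelets. Furin, the protein targeted in these mice, is a protease that cuts precursor proteins into mature forms.

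The windows around the annotated starts of the 3 genes are shown so that their promoters can be set side by side. The genes lay lower together because they were chosen for it, and shared control was not tested. They are credited to RefSeq (GRCm38.p6), run from 250 bases before to 50 after the most upstream start, and are the 300 bases at chr4:135398178-135398477 on the minus strand for Ncmap, 1 of 2 starts listed, chr3:107290980-107291279 on the plus strand for Slc16a4, which has 1, and chr6:128143529-128143828 on the minus strand for Tspan9, 1 of 4. Capitals mark matches on either strand. The letters searched for a GC box were GGGCGG, and neighbouring matches to it may overlap. For the other boxes, each known by its own letters, they were CCAAT in the case of the CCAAT box, while for the TATA box the search was for TATAAA.
Ncmap: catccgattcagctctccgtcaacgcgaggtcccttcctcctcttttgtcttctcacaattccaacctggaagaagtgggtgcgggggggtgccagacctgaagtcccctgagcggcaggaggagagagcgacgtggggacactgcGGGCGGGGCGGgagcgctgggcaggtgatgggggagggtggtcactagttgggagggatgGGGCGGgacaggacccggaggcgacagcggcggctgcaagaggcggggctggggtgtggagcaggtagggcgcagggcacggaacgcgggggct
Slc16a4: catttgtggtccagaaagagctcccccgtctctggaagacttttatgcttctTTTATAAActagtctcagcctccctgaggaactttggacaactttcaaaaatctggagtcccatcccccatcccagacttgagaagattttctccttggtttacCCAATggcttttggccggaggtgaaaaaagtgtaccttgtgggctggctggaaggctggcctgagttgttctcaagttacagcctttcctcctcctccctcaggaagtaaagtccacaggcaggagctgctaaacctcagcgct
Tspan9: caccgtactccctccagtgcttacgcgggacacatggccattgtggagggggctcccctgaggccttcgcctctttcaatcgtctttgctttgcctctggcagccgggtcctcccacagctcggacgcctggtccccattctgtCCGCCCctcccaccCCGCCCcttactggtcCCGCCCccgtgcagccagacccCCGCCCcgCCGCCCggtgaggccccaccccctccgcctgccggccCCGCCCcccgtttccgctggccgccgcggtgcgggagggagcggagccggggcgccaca

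The Ncmap and Tspan9 windows were rich in G and C, at 67.7% and 73.3%, and held 3 and 6 GC box matches, whereas that of Slc16a4 was at 49.3% with 0. The median of 32851 mouse promoter windows was 52.7%, and 35.7% of them held a GC box. The Slc16a4 window held 1 CCAAT match and 2 overlapping TATA matches on opposite strands, and those letters occurred in 37.4% and 13.6% of all windows. The letters of an AP-1 site (TGANTCA) and of a LEF/TCF site (CTTTGA), present in 7.81% and 16.0% of all windows, were not found in these 3 windows. A match is a run of letters and no evidence of binding.

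Signals are MAS5 intensities on a linear scale, and differences are knockout minus wild type of log2(signal + 15.3), a scale that understates the change of dim probe sets. The SE beside a difference is that of the limma fit without a block and so includes the difference between array numbers. Arrays numbered 1 and 2 differed from each other more than the genotypes did. The first principal component held 78.7% of the variance and separated the numbers, and arrays with the same number strayed from their groups in the same way, with a correlation of 0.80 over probe sets. Differences are therefore also given within each number, pair 1 being the arrays with number 1 and pair 2 those with number 2. Furin was not lower on the knockout arrays, at 435.1 and 343.9 in wild type and 391.4 and 446.9 in knockout, and its probe set may lie outside the deleted part, so this checks neither deletion nor labels. T cell markers summed over 8 genes were at 68530 and 135429 on wild-type arrays 1 and 2 and at 64518 and 128538 on knockout arrays 1 and 2. The sums thus differed far more between array numbers than between genotypes. Xist was bright on all 4 arrays, at 11144 or more for its brightest probe set.

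Ncmap was the lowest of 22518 probe sets that passed the filter on low values. Its 1 probe set gave signals of 192.6 and 409.6 on wild-type arrays 1 and 2, and of 22.4 and 15.9 on knockout arrays 1 and 2. Both knockout arrays lay far below both wild-type arrays, and the groups did not overlap. The mean was 301.1 ± 153 (SD, n = 2) in wild type and 19.1 ± 4.60 (SD, n = 2) in knockout. On the log2 scale the fitted difference was -3.12 (SE 0.47), -2.46 in pair 1 and -3.77 in pair 2. Wild-type array 2 was 2.13 times as bright as wild-type array 1.

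The knockout signals of Ncmap lay within the range of probe sets for genes of other tissues. A list of 30 such genes, among them Alb of liver and Myh6 of heart, had 50 probe sets for 27 genes, with median signals from 11.8 to 20.9 across arrays. Brightness cannot be compared strictly between probe sets, so this is a guide to background and not a detection call. Ncmap on wild-type arrays was above all 50, at percentiles 64.7 and 72.8 of all probe sets on those arrays. On knockout array 1 it was matched or exceeded by 15 of the 50 and on knockout array 2 by 26, at percentiles 33.3 and 22.9. Since the knockout signals cannot be told from this guide, no fold is given. The wild-type signal was 5.51 times the 90% quantile of the 50 on the knockout array in pair 1 and 6.13 times in pair 2. Signals of other probe sets do not bound the background of this one, so these values are no lower limits of the fold. The fitted difference depends on the number added before the logarithm and is no bound: it was -2.04 with the median of all values, 66.6, in place of 15.3, and -3.63 with their 10% quantile.

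The brighter Slc16a4 probe set, 1456914_at, gave 316.4 and 222.2 on wild-type arrays 1 and 2, and 66.3 and 41.1 on knockout arrays 1 and 2. All knockout values lay below all wild-type values, and in both groups array 1 was the brighter. The mean was 269.3 ± 66.6 (SD, n = 2) in wild type and 53.7 ± 17.8 (SD, n = 2) in knockout. The difference was -2.05 (SE 0.39), with -2.02 in pair 1 and -2.07 in pair 2, the closest match between pairs among the 3 genes. Its rank from the lowest of the 22518 was 3. Wild-type signals were above all 50 probe sets of other tissues, whereas 1 of 50 was at or above the signal on knockout array 1 and 10 on knockout array 2. The signal on knockout array 2 was below the 90% quantile of the 50 on that array. The signal on wild-type array 2 was 3.33 times that quantile, which is no lower limit of the fold.

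The other Slc16a4 probe set, 1426082_a_at, was dim and did not pass the filter. It gave 19.2 and 83.5 on wild-type arrays 1 and 2 and 10.2 and 52.1 on knockout arrays 1 and 2. Here the array number outweighed the genotype: array 2 was 4.35 times as bright as array 1 in wild type and 5.11 times in knockout, opposite in direction to the brighter probe set, and the groups overlapped. The difference was -0.49 (-0.44 and -0.55 in the pairs). Between 7 and 28 of the 50 probe sets of other tissues were at or above this one on each array, so no fold is given and its values neither add to nor take from those of the brighter probe set.

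One Tspan9 probe set, 1428197_at, stayed above the guide to background in both groups. It gave 622.7 and 720.9 on wild-type arrays 1 and 2 and 191.6 and 178.3 on knockout arrays 1 and 2. The knockout arrays lay below the wild-type arrays, and within each group the arrays were close. The mean was 671.8 ± 69.4 (SD, n = 2) in wild type and 184.9 ± 9.40 (SD, n = 2) in knockout. The wild-type signal was 3.25 times the knockout signal in pair 1 and 4.04 times in pair 2, which were also the lowest and highest of the 4 comparisons of a wild-type with a knockout array. The difference was -1.78 (SE 0.32), with -1.62 and -1.93 in the pairs. All 4 signals were above all 50 probe sets of other tissues, and those of the knockout arrays stood at percentiles 64.8 and 63.2.

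The dim Tspan9 probe set, 1441968_at, did not pass the filter and gave 34.5 and 16.1 in wild type and 3.4 and 4.6 in knockout. The groups did not overlap, and the difference was -1.04, with -1.41 and -0.66 in the pairs. Between 6 and 40 of the 50 probe sets of other tissues were at or above it on each array, so its values add little on the level. Over the 3 genes, all 5 probe sets lay lower in knockout in both pairs and 4 had groups that did not overlap. Of kept probe sets 30.1% were lower in both pairs and 9.54% had both knockout arrays below both wild-type arrays, and of those not kept 23.5% and 12.3%. The 3 kept probe sets had to be low because the genes were chosen for it, so nothing is read from these counts.

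**Figure D1:**
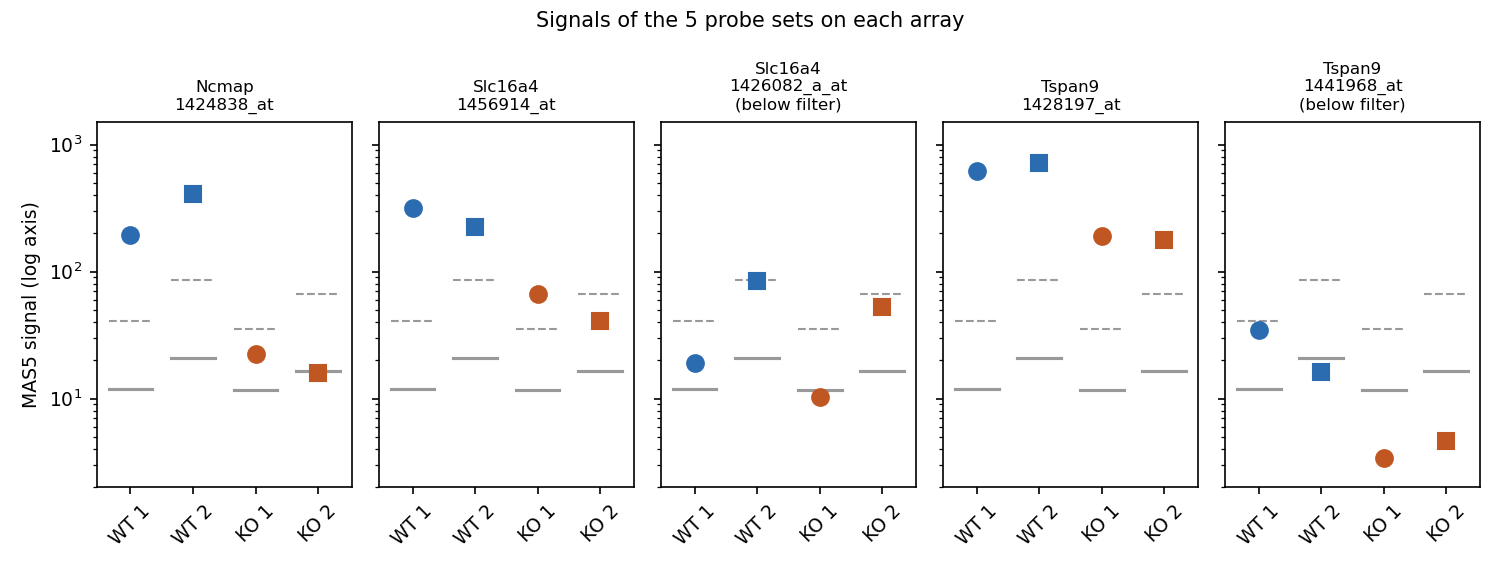
MAS5 signal (log axis) of the 5 probe sets on wild-type (WT, blue) and knockout (KO, orange) arrays numbered 1 (circles) and 2 (squares). Grey solid and dashed lines are the median and 90% quantile of 50 probe sets for genes of other tissues on that array. The Ncmap knockout signals, 22.4 and 15.9, lie below the dashed line, while those of Tspan9 probe set 1428197_at, 191.6 and 178.3, lie above it.

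The genes were first singled out because both knockout arrays lay at least 2-fold, or 1 on the log2 scale, below both wild-type arrays. This held for 9 kept probe sets, 0.04% of 22518, against 0.164% that were at least 2-fold higher. In the comparison where it was least lower, Ncmap lay at -2.46, Tspan9 at -1.62 and Slc16a4 at -1.54. Of the other 6 probe sets, 3 had no gene symbol and 3 belonged to Rhbdd3, Rpf1 and Zmym3, at -1.62, -1.34 and -1.09. The brightest probe sets of those genes differed by 0.12, -0.003 and -0.24, whereas Ncmap, Slc16a4 and Tspan9 had no other kept probe set to set against theirs. Just inside the limit lay Zmym3 and an unnamed probe set, 1442692_at, both at -1.09, and just outside lay Ctsw, a cathepsin of cytotoxic cells, at -0.95, Rpap1 at -0.88 and Bub3 at -0.82. Ncmap, Slc16a4 and Tspan9 stayed within the limit under each of the pseudocounts and normalizations tried.

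**Figure D2:**
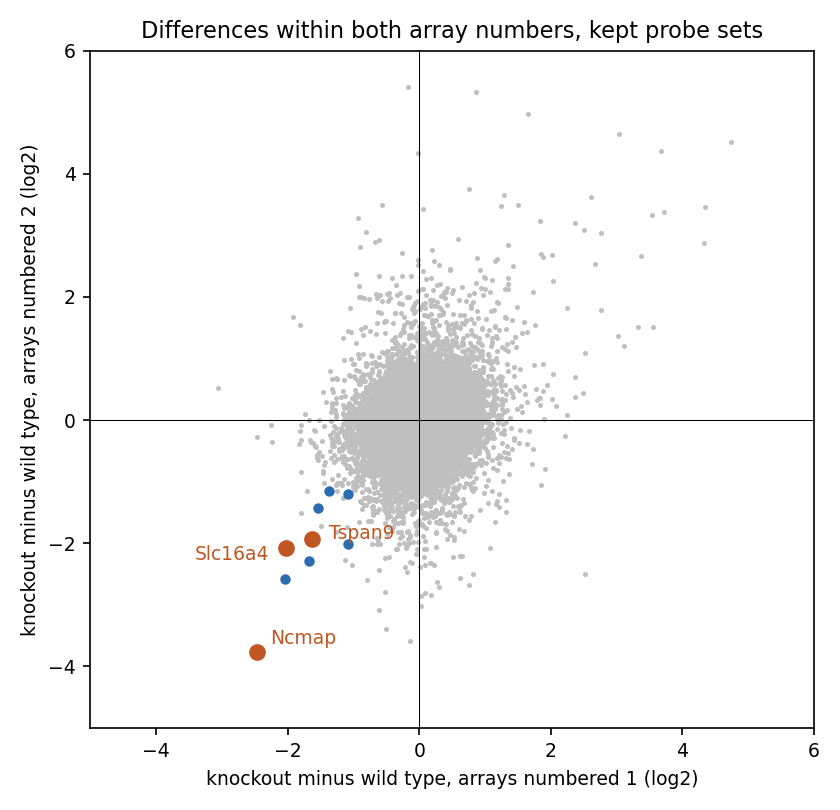
Knockout minus wild type on the log2(signal + 15.3) scale within arrays numbered 1 (horizontal axis) and within arrays numbered 2 (vertical axis) for 22518 kept probe sets (grey). Orange points are Ncmap, Slc16a4 and Tspan9 and blue points the other 6 probe sets at least 2-fold lower in all comparisons. Among the orange and blue points Ncmap is farthest from 0, at -2.46 and -3.77.

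Profiles over the 4 arrays were compared by the Euclidean distance between deviations from each gene's own mean, over 10210 other genes with 1 probe set each. The points share 4 libraries and the array-number difference, and the members share the contrast they were chosen on, so likeness is a description. Nearest to Ncmap were Tspan9, at a distance of 1.47, and Slc16a4, at 1.52, and then Ctsw, Htr1b, a serotonin receptor, and Kcnip2, a protein that binds potassium channels. Nearest to Slc16a4 were Kcnip2, at 0.63, Tspan9, at 0.64, Amz1, a metallopeptidase, Slc22a12, a urate transporter, and Htr1b. Nearest to Tspan9 were Ctsw, at 0.62, Slc16a4, at 0.64, Htr1b, Arsb, a lysosomal sulfatase, and Sox21, a transcription factor. Slc16a4 and Tspan9 were thus each second in order of likeness to the other, but Ncmap, with its larger difference, stood at 111 and 485 in their orders.

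The genes alike in profile differed as follows. Ctsw was at -1.60 (SE 0.44, pairs -1.49 and -1.72), with signals of 2413 and 4114 in wild type and 851.1 and 1240.2 in knockout. Kcnip2 was at -1.54 (SE 0.49, pairs -1.27 and -1.81) and Htr1b at -1.52 (SE 0.52, pairs -0.61 and -2.43). Amz1 and Slc22a12 were at -1.11 and -1.17, and Arsb and Sox21 at -0.96 and -0.93, all lower in both pairs. Like the members, these genes were picked for how they moved.

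The list set beside Slc16a4 holds genes of monocarboxylate transport, not all of them of its protein family. Of 17 listed genes of monocarboxylate transport, 16 had a probe set and 8 passed the filter, and 0 of the 8 were called by limma at a Benjamini-Hochberg adjusted p of 0.05. Over all 22518 kept probe sets limma called 0 (0.0%) without a block for the pair, with 145 at an unadjusted p under 0.05, and 6 (0.0266%), all higher, with it. The 0 of 8 without a block therefore says nothing about these genes in particular. The median of the 8 was -0.13 (-0.19 and -0.04 in the pairs) against -0.002 over all 10211 genes, 3 were lower in both pairs and 1 was higher, and 27.2% and 27.7% of all genes were. Slc16a1, which carries lactate and pyruvate, was at -0.15 (SE 0.40, pairs -0.36 and 0.07), and Slc16a13 at -0.34 (SE 0.48, pairs 0.35 and -1.03). Emb and Bsg escort such transporters to the membrane. Emb was at -0.26 (SE 0.33, pairs -0.26 and -0.27), and Bsg at 0.37 (SE 1.05, pairs 0.56 and 0.18). Of the 11 kept probe sets of this list 0 were 2-fold lower in all comparisons, against 0.04% of all kept probe sets. In 4 of the 11 both knockout arrays lay below both wild-type arrays, against 9.54% of all kept probe sets. The lowest, at -0.86, belonged to Slc16a10, whose brightest probe set was at -0.11. Slc16a10 was named after its values were seen.

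Enzymes and transporters of lactate and pyruvate metabolism had a median close to 0. All 17 measured genes of 20 listed were kept, with a median of -0.04 (-0.03 and 0.01 in the pairs), 3 lower and 5 higher in both pairs. Ldha, which makes lactate from pyruvate, was at -0.04 (SE 0.33) and Pgk1, a glycolytic kinase, at -0.06 (SE 0.73). Hk2, an inducible hexokinase, was at 0.86 (SE 0.52), with signals of 126.0 and 42.8 in wild type and 149.9 and 149.4 in knockout. Slc2a3, a glucose transporter, was at 0.37 (SE 0.35), 0.24 and 0.49 in the pairs, and Hk1 at -0.31 (SE 0.40), -0.79 and 0.17 in the pairs.

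Among tetraspanins other than Tspan9, 28 of 30 listed genes had a probe set and 17 were kept. Their median was -0.04 (-0.09 and 0.13 in the pairs), with 5 lower and 4 higher in both pairs. Of 29 kept probe sets 0 were 2-fold lower in all comparisons, against 0.04% of all kept probe sets. In 4 of the 29 both knockout arrays lay below both wild-type arrays, against 9.54% of all kept probe sets. Cd53 and Tspan13, bright in these cells with signals of 8986 or more and 5086 or more, were at -0.04 (SE 0.85) and 0.01 (SE 0.33). Tspan31 was at 0.44 (SE 0.35, pairs 0.10 and 0.77), and Upk1a, known from the bladder lining, at -0.67 (SE 0.66, pairs -0.24 and -1.09) with signals between 31.6 and 154.0. Tspan15, which partners the protease Adam10, was at 0.99 (SE 0.91), but with 2.22 in pair 1 and -0.25 in pair 2 it had no common direction.

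Proteins that tetraspanins bind had a median of -0.07 over 10 kept genes of 13 listed (-0.14 and 0.04 in the pairs), 2 of them lower and 0 higher in both pairs. Of the integrin chains, Itgb1 was at -0.37 (SE 0.42, pairs -0.83 and 0.10) while Itga3 was at -0.35 (SE 0.48, pairs 0.17 and -0.87), and Ptgfrn, a tetraspanin-bound immunoglobulin protein, at -0.35 (SE 0.47, pairs -0.43 and -0.27). The bright T cell receptors Cd2 and Cd5 were at -0.05 (SE 0.56) and -0.06 (SE 0.42).

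Few myelin and Schwann cell genes were measured above the filter. Of 15 listed myelin genes 12 had a probe set and 4 were kept, with a median of 0.18 (0.16 and 0.32 in the pairs), 0 lower and 2 higher in both pairs. Cnp and Mbp, whose signals were 3558 or more on all arrays, were at 0.22 (SE 0.66, pairs 0.10 and 0.35) for Cnp and 0.13 (SE 0.36, pairs -0.03 and 0.28) for Mbp, and Gal3st1, an enzyme of myelin lipid synthesis, at 0.59 (SE 0.37, pairs 0.23 and 0.94). Of the 10 kept probe sets of the myelin list 0 were 2-fold lower in all comparisons, against 0.04% of all kept probe sets. In 1 of the 10 both knockout arrays lay below both wild-type arrays, against 9.54% of all kept probe sets. The lowest, at -0.34, belonged to Mbp, whose brightest probe set is the one at 0.13. The 8 myelin genes not kept, among them Pmp22, Mag and Mal, had signals from 1.2 to 67.9. Of 10 Schwann and glial markers 3 were kept, with a median of -0.08: Sox10 was at -0.84 (SE 0.55), with 0.02 in pair 1 and -1.69 in pair 2, Erbb3 at -0.08 (SE 0.33) and Egr2, an early gene of T cells too, at 0.04 (SE 0.63).

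In these lists, limma called 0 kept genes in the fit with no block, in the blocked fit, and in the blocked fit that used a trended prior. Of all kept probe sets these fits called 0.0%, 0.0266% and 1.15%. The fit with no block called nothing at all, so its 0 says nothing about these lists. At an unadjusted p under 0.05 there were 0 in each list without the block, and with it 1 of the 17 metabolic genes and 1 of the 17 tetraspanins, against 0.558% of all 10211 genes without the block and 6.27% with it. No difference between a member and the list set beside it was tested, since the members were chosen for theirs.

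**Figure D3:**
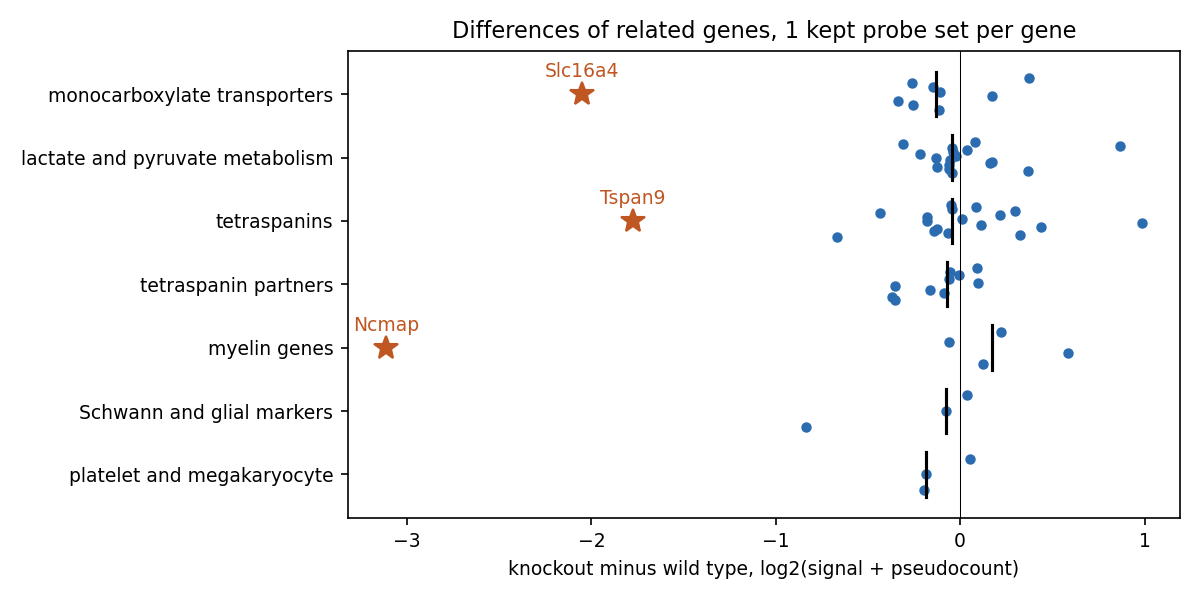
Knockout minus wild type on the log2(signal + 15.3) scale for kept genes of each list (blue points, brightest kept probe set per gene; black bars are medians). Orange stars mark Slc16a4 at -2.05, Tspan9 at -1.78 and Ncmap at -3.12 beside the monocarboxylate transporter, tetraspanin and myelin lists, whose own kept genes lie between -0.67 and 0.99.

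Markers of other cell types differed between the arrays. In bulk RNA fewer cells of a type and less RNA per cell cannot be told apart. Of 10 platelet genes with a probe set 3 were kept; Itga2b and Itgb3, the chains of the platelet integrin, were at -0.19 (SE 0.68, pairs -0.27 and -0.10) for the first and -0.19 (SE 0.45, pairs -0.19 and -0.20) for the other, and Gp1bb, the third kept, at 0.05 (SE 0.62, pairs -0.60 and 0.70). Of the 7 not kept, 2 were lower and 3 higher in both pairs. The defining platelet genes Pf4 and Ppbp were below the filter, with Pf4 at 24.5 and 49.5 in wild type and 46.2 and 56.0 in knockout, and Ppbp at 33.2 and 6.0 in wild type and 11.3 and 1.7 in knockout. The sum over the 10 genes ran from 3859 to 5367 in wild type and from 3476 to 4789 in knockout, most of it Itgb3, and without Itgb3 it was 309.7 and 776.6 in wild type and 355.4 and 793.4 in knockout. Myeloid markers had sums over 8 genes of 338.8 and 1238 in wild type and 747.3 and 9839 in knockout. All 6 kept were higher in both pairs, against 27.7% of all genes, and the 2 not kept had no common direction. The filter used the mean of all 4 arrays, so markers high in knockout could pass it through those arrays. Limma called 4 of the 6 when a trended prior was added to the blocked fit, which called 1.15% of all kept probe sets. Sums over 6 B cell markers were 362.5 and 1447 in wild type and 367.4 and 4025 in knockout. Those over 4 erythroid markers were 109.3 and 1081 in wild type and 103.6 and 490.1 in knockout. Of the 3 erythroid markers kept, 0 were lower and 1 was higher in both pairs, against 27.2% and 27.7% of all genes. Of 7 measured genes of CD8 T and NK cells, whose sums were 3771 and 3497 in wild type and 4238 and 3801 in knockout, 6 were kept, with 1 lower and 3 higher in both pairs. The blocked fit with a trended prior called 2 of the 6 higher, both named after their values were seen. They were Gzma, a granzyme, at 1.78 (SE 0.46, pairs 1.35 and 2.21), and Nkg7, of cytotoxic granules, at 1.22 (SE 0.35, pairs 0.96 and 1.49). The rest of the list did not share this rise. Prf1 was at -0.24 (pairs -0.18 and -0.29), Cd8a at -0.26 (pairs 0.08 and -0.60), Klrd1 at -0.03 and Cd8b1 at 0.17 (pairs 0.32 and 0.02). Ncr1, not kept, was at -0.68 (pairs -0.54 and -0.83). The genes of this rest were also named after their values were seen and were not followed under other settings below. Ctsw, lower above, is known from CD8 T and NK cells too. Whether these cells have a part in the lower signals of Ncmap, Slc16a4 and Tspan9 was not tested.

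The genes that lie beside Ncmap, Slc16a4 and Tspan9 on their chromosomes had medians between 0.02 and 0.06. The 4 nearest kept genes on each side were taken from the RefSeq gene table. The 8 neighbours of Ncmap had a median of 0.02 and ran from -0.30 for Rcan3, an inhibitor of calcineurin, to 0.43 for Clic4, an intracellular chloride channel protein. Those of Slc16a4 had a median of 0.06 and ran from -0.25 for Kcna3, a potassium channel of T cells, to 1.27 for Csf1, the macrophage growth factor (SE 0.38, pairs 1.17 and 1.37). Those of Tspan9 had a median of 0.05 and ran from -0.15 for Parp11 to 0.71 for Foxm1, a cell cycle transcription factor (SE 0.76, pairs 0.44 and 0.97). Limma called 0 of these 24 genes without the block and with it. Of all kept probe sets it called 0.0% and 0.0266%, so the absence of calls says little about these genes. An unadjusted p under 0.05 was given to 1 of them without the block (Csf1) and to 3 with it (Csf1, Slc6a17 and Foxm1), which were named after their values were seen; of all genes 0.558% and 6.27% had such a p.

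**Figure D4:**
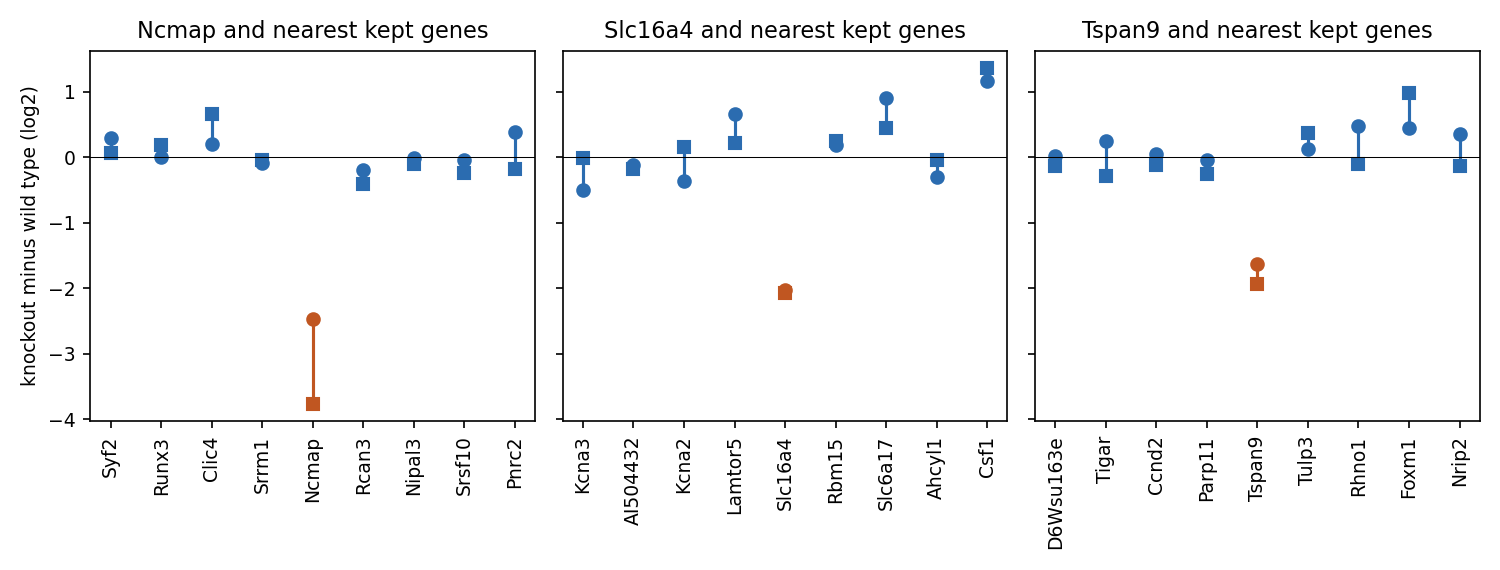
Knockout minus wild type on the log2(signal + 15.3) scale within arrays numbered 1 (circles) and 2 (squares) for Ncmap, Slc16a4 and Tspan9 (orange) and the 4 nearest kept genes on each side in RefSeq order (blue), not to scale in distance. The members lie between -1.62 and -3.77, and the lowest value of a neighbour within a pair is -0.50, for Kcna3.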

How the data were processed

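Naive helper T cells of 2 wild-type and 2 knockout samples were measured on 1 Affymetrix array each; per the labels' protocols, biotinylated cRNA was prepared from 5 micrograms of Trizol-extracted RNA. Per the submitters' processing notes, MAS5 was used, and the deposited values are its intensities on a linear scale, 1 per probe set. No source used here gives the MAS5 version or settings. The values show that each array had a trimmed mean of 500.003 when 2% is trimmed at each end. Detection calls were not used here, which leaves the signal over background of single probe sets unknown.

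From 45101 probe sets, 64 controls were removed. Of the other 45037, 34945 had 1 gene symbol, 932 several and 9160 none, and 34741 symbols were updated through Entrez identifiers in a RefSeq table (GRCm38.p6). Signals were transformed as log2(signal + 15.3), 15.3 being the 25% quantile of all values, and the 22518 probe sets with a mean above the median of means, 6.24, were kept. Where a gene had several kept probe sets, the one of highest mean stands for it. The comparison of groups used limma 3.58.1 (R 4.3.3) on all 4 arrays without a block, as a two-sided test by lmFit and eBayes. Benjamini-Hochberg adjustment covered all kept probe sets, with a threshold of 0.05. The fit was first run on simulated data, where only the bias of the estimated difference had to stay under a limit. Since no label says that the arrays of a group are separate animals, p-values reflect the spread of these arrays alone, which may be technical.

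Members and lists were chosen with earlier results of these data known. Named genes are the members, Furin, the probe sets at or just outside the 2-fold limit, the 5 nearest in profile, genes among the 4 chromosomal neighbours on each side with the lowest or highest difference, and list genes with the largest differences or the brightest signals. Slc16a10, the platelet genes and others marked in the text were named after their values were seen. Array numbers in the labels name no shared animal or day, and same-numbered arrays deviated together (correlation 0.80), so within-pair values are printed; the number entered as a block in alternative fits only. Alternatives covered the pseudocount, filter, normalization, prior, block, threshold and each array left out.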

Additional observations from a re-analysis of the deposited data

How the results depend on the processing

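The differences of Ncmap, Slc16a4 and Tspan9 kept their sign under every alternative run for them. They were chosen with all knockout values below all wild-type values. Leaving out an array or changing the pseudocount therefore could not change the sign. With the pseudocount at the median of all values, 66.6, they shrank to -2.04, -1.47 and -1.55. With 1 array left out Ncmap ranged from -3.63 to -2.60, Slc16a4 from -2.31 to -1.78 and Tspan9 from -1.88 to -1.67. With the pseudocount at the 10% quantile Ncmap was at -3.63. The other settings moved them by less than the replicate SD pooled over the groups. The count of probe sets at least 2-fold lower in all comparisons, 9, was 5 with the pseudocount at the median, 53 with no filter and 69 with a 1.5-fold limit. It was 0 above the 75% quantile of means, a filter that Ncmap, Slc16a4 and Tspan9 themselves did not pass. Over all probe sets limma called 0 without the replicate block and 6 with it, 260 with the block plus a trended prior, and 9 with the block and an adjusted p under 0.10, a setting chosen after seeing the data; with 1 array left out it called 0.

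The monocarboxylate list median was 0.0060 with no filter, and the lactate and pyruvate median 0.091 when a gene's kept probe sets were averaged. With 1 array left out the monocarboxylate median ranged from -0.24 to -0.14, lactate and pyruvate from -0.039 to 0.080, tetraspanins from -0.053 to 0.20, their partners from -0.26 to 0.065, myelin from -0.044 to 0.63 and Schwann markers from -0.63 to 0.020. Of 51 named genes other than the members, 27 changed sign when 1 array was left out, which mixes genotype with array number: Furin from -0.055 to 0.27, Bsg from -0.82 to 1.57, Slc16a13 from -0.89 to 0.21, Slc16a1 from -0.51 to 0.21, Slc16a10 from -0.45 to 0.23, Tspan15 from -0.33 to 2.31, Upk1a from -1.47 to 0.14, Cd53 from -0.96 to 0.88, Tspan13 from -0.14 to 0.17, Itgb1 from -0.79 to 0.056, Ptgfrn from -0.77 to 0.063, Itga3 from -0.92 to 0.21, Cd2 from -0.61 to 0.50, Cd5 from -0.43 to 0.31, Cnp from -0.47 to 0.92, Mbp from -0.13 to 0.39, Erbb3 from -0.18 to 0.024, Egr2 from -0.63 to 0.71, Hk1 from -0.65 to 0.029, Ldha from -0.16 to 0.08, Pgk1 from -0.85 to 0.73, Foxm1 from -0.17 to 1.59, Kcna3 from -0.84 to 0.33, Clic4 from -0.064 to 0.92, Itgb3 from -0.56 to 0.17, Itga2b from -0.89 to 0.52, Gp1bb from -0.75 to 0.86. In all other settings 1 of 480 values changed sign, that of Tspan13, -0.026 with quantile normalization. Ctsw, Kcnip2, Arsb, Rhbdd3, Rpf1, Gzma and Nkg7 passed the threshold with the block plus a trended prior. The cause of these changes was not tested. The table gives no signal over background, and 2 arrays a group limit every value.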
